A study of Homo sapiens with 6 samples.

Results

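Microtubules are built from heterodimers of alpha and beta tubulin, and human cells encode each class in several genes, the isotypes. The isotype proteins are alike in their bodies and differ mostly in their acidic C-terminal tails, which carry glutamylation and other modifications and contact motors and microtubule-associated proteins. Tubulin mRNA is also under autoregulation: when soluble tubulin is in excess, TTC5 binds the start of the nascent tubulin chain at the ribosome and recruits SCAPER and the CCR4-NOT deadenylase, and the mRNA is degraded. The 10 genes described here are the alpha isotypes TUBA1A, TUBA1B and TUBA1C and the beta isotypes TUBB, TUBB2A, TUBB2B, TUBB3, TUBB4A, TUBB4B and TUBB6. They were taken by symbol, through GENCODE release 29, from a count table of 58721 genes.

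RNA sequencing counts came from 6 libraries of HEK293T cells, a human embryonic kidney line. In 3 libraries both ALKBH5 and FTO had been targeted with CRISPR/Cas9 (double knockout); their products are demethylases that remove N6-methyladenosine from RNA. The other 3 libraries came from cells labelled wild type, whose columns were named HEK293G6, a name the labels do not explain. The RNA was isolated from detergent lysates cleared by centrifugation, was depleted of ribosomal RNA and was not selected for poly(A). The labels describe the replicates as biological and independent. How many knockout clones were used, and whether the wild type cells were the parents of the knockout, are not given in the sources used here, so a difference between lines and the loss of the demethylases cannot be told apart.

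Gene counts per library lay between 5634648 and 7551825. FTO had 53.8, 53.6 and 61.0 CPM (counts per 1000000 counts, scaled by TMM) in double knockout libraries, against 106, 96.5 and 112 CPM in wild type libraries. ALKBH5 had 186, 186 and 187 CPM in double knockout libraries, against 242, 256 and 236 CPM in wild type libraries. Both targeted genes were lower in every double knockout library, and both kept mRNA; gene counts do not show whether an edited transcript still encodes protein. Of 14180 genes tested with edgeR's quasi-likelihood test at a Benjamini-Hochberg adjusted p under 0.05, 28.6% were higher and 28.5% lower in double knockout cells, 57.1% in all. The ranges of the groups did not overlap for 60.6% of tested genes. Of 6 HEK293T line markers 6 were tested, 5 higher, among them VIM (log2 0.45), KRT18 (0.69) and CDH2 (1.02), and 1 lower, with summed levels of 1502 to 1504 CPM in double knockout libraries and 1100 to 1165 CPM in wild type libraries. Of 7 haematopoietic markers 1 was tested and was not called, CD3E and HBG1 were at 0 in all libraries, and the list summed to 2.33 to 3.08 CPM in double knockout and 1.49 to 2.34 CPM in wild type libraries. Of 6 fibroblast markers 2 were tested and both were called lower. LUM had 3 reads in double knockout and 52 in wild type libraries. COL1A1 had a log2 fold change of -0.34 with overlapping ranges (edgeR adjusted p = 0.0397), and the lower count was 1 in 8 of 16 alternative fits, among them those without double knockout replicate 1 or 2 or wild type replicate 1 or 3. COL1A2 was at 0, and the list summed to 8.99 to 11.8 CPM in double knockout and 12.9 to 16.8 CPM in wild type libraries.

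The coding sequences show both how alike the isotypes are and where they part. All begin with a short stretch that encodes the residues recognised in autoregulation, shown here for a member of each class and for TUBB2B with its first 12 bases in capitals (GENCODE 29 transcripts, 5′ to 3′).
TUBA1B: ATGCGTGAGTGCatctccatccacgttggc
TUBB: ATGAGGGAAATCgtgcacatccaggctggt
TUBB2B: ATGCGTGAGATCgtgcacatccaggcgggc

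The last 60 bases of the coding sequence, stop codon included, encode the tail. It is shown for the 6 tested beta isotypes, and capitals mark bases that differ from TUBB in an alignment of the whole coding sequences. A marked base need not change the encoded residue. The TUBB2A and TUBB2B ends differ from each other only in the last base of the final codon before the stop and of the stop itself.
TUBB: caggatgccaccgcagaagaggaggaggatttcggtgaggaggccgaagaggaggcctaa
TUBB4B: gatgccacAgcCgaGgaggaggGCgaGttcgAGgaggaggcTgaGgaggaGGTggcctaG
TUBB4A: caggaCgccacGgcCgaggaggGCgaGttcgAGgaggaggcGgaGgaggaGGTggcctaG
TUBB2A: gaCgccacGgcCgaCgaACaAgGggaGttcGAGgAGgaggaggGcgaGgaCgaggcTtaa
TUBB2B: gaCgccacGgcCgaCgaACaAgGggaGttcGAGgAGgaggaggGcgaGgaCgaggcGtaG
TUBB6: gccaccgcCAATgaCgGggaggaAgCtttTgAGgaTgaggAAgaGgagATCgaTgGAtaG
Coding sequences were 95.9% to 97.2% identical among the 3 alpha isotypes and 81.0% to 98.1% identical among the 7 beta isotypes, and 55.7% to 57.4% identical between the classes. TUBB2A and TUBB2B were the closest pair, at 98.1%.

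This likeness bears on the counts, since a read from a shared stretch cannot be placed and how such reads were counted is not given in the sources used here. Stretches of 50 bases that also occur in a transcript of another gene made up 65.5% of the TUBB2A transcript and 52.2% of the TUBB2B transcript. They made up 62.7% of TUBA1B, 41.1% of TUBA1A and 25.1% of TUBA1C. For TUBB the share was 18.2%, mostly with the pseudogene TUBBP1, and for TUBB4B, TUBB4A and TUBB6 it was 9.89%, 5.99% and 0.993%. With stretches of 100 bases it was 56.4% for TUBB2A, 46.2% for TUBB2B, 37.2% for TUBA1B, 18.3% for TUBA1A, 11.5% for TUBA1C and 5.1% for TUBB. Which length applies depends on the read length, which is not reported here. For TUBB3 it was 89.4% with 50 bases and 89.0% with 100, most often shared with the read-through gene AC092143.1. The counts of TUBB2A, TUBB2B, TUBB3 and the alpha isotypes are therefore the less certain ones.

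Of the 10 isotypes 9 passed the filter on low counts. Among them 6 were higher in double knockout cells, where 28.6% of all tested genes were higher, and 2 were lower, where 28.5% were lower. TUBA1B was not called, and TUBB3 was not tested. The ranges of the groups did not overlap for 8 of the 9, where they did not overlap for 60.6% of all tested genes. The median log2 fold change of the 9 was 0.30, beside 0.01 over all tested genes. A change of 2-fold or more was seen in 1 of the 9, beside 851 of the 14180 tested genes. These are descriptions of a list picked with results of these data known.

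**Figure D1:**
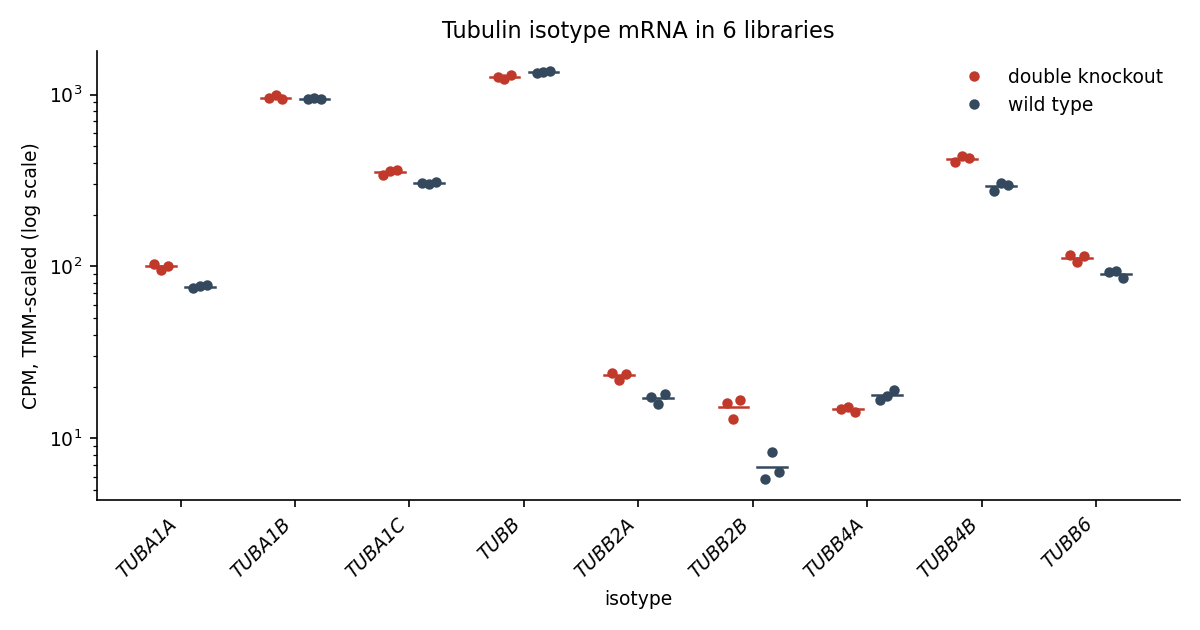
CPM (TMM-scaled, log axis) of the 9 tested isotypes, with 1 point per library, double knockout left of wild type, and bars at the group means. TUBB2B, at 12.9 to 16.6 CPM in double knockout and 5.77 to 8.28 CPM in wild type libraries, is the isotype with the widest gap, and the points of TUBA1B overlap.

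TUBB2B, a beta isotype prominent in the developing brain and mutated in cortical malformations, showed the largest change of the 9 tested isotypes (chr6:3224261-3231730, hg38, minus strand). It had 96, 84 and 104 reads in double knockout libraries, against 42, 61 and 35 reads in wild type libraries, which is 16.0, 12.9 and 16.6 CPM against 5.77, 8.28 and 6.35 CPM. Every double knockout library lay above every wild type library. The fold was 2.21 (log2 1.14, SE 0.15, edgeR quasi-likelihood adjusted p = 9.88e-13), and 4.40% of tested genes changed by more. TUBB2A, its neighbour on chromosome 6 and near-copy, had 24.1, 22.0 and 23.7 CPM in double knockout libraries, against 17.5, 15.8 and 18.2 CPM in wild type libraries. The groups did not overlap, and the log2 fold change was 0.45 (SE 0.11, edgeR adjusted p = 9.29e-05). Reads shared by the pair may be divided between them. The opposite-strand gene PSMG4 shares 174 exon bases with TUBB2B and was not called (log2 -0.13, edgeR adjusted p = 0.0927).

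TUBB4B, a broadly expressed beta isotype also used in cilia, had 405, 441 and 427 CPM in double knockout libraries, against 276, 306 and 296 CPM in wild type libraries (chr9:137241213-137243707, plus strand). All double knockout libraries were higher, and the log2 fold change was 0.54 (SE 0.03, edgeR adjusted p = 5.9e-45). Genes around it moved too. Of 96 other tested genes within 5 Mb, 81 were higher and 1 was lower in double knockout cells, beside 28.6% and 28.5% of all tested genes. Their median log2 fold change was 0.44. The part of this shared shift in the TUBB4B value was not tested. Around the other tested isotypes the median of the neighbours lay between -0.02 and 0.13, and around TUBB2A and TUBB2B it was 0.04 over 32 genes.

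**Figure D2:**
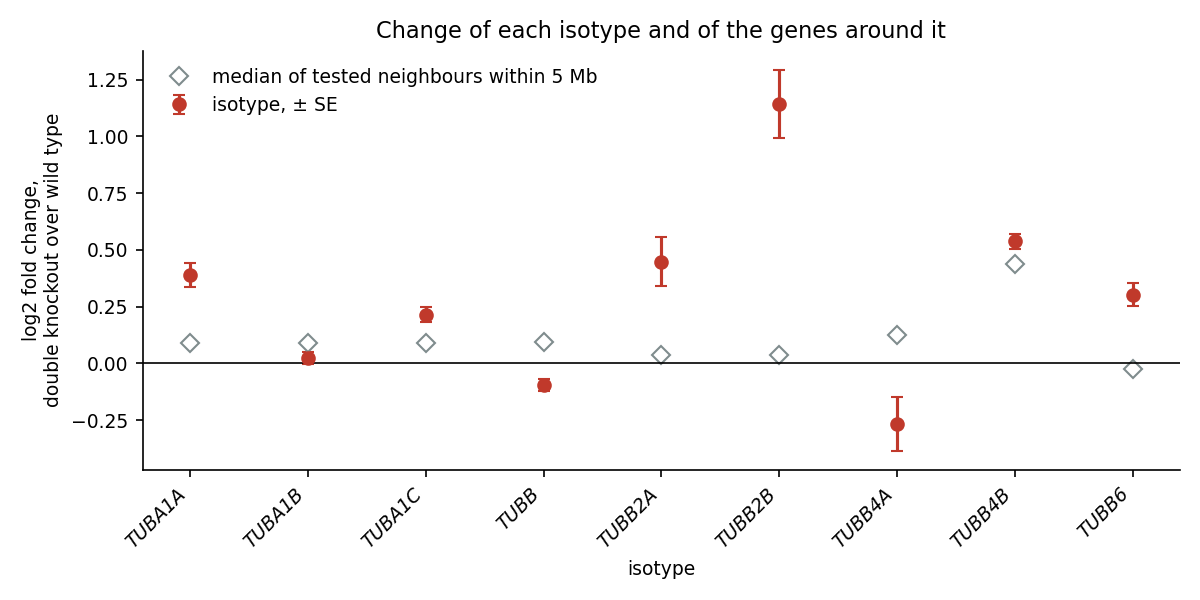
Log2 fold change (double knockout over wild type) of each tested isotype with its SE, beside the median over other tested genes within 5 Mb (diamonds). TUBB4B at 0.54 sits near its neighbours' 0.44, whereas TUBB2B at 1.14 sits above neighbours at 0.04.

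TUBB6, a divergent beta isotype expressed outside the nervous system, had 117, 106 and 115 CPM in double knockout libraries, against 92.9, 94.1 and 85.9 CPM in wild type libraries. The groups did not overlap, and the log2 fold change was 0.30 (SE 0.05, edgeR adjusted p = 1.65e-08). TUBB6 shares 837 exon bases with AFG3L2 on the other strand, which was not called (log2 -0.04, edgeR adjusted p = 0.429). With libraries scaled to the spike-in RNAs the TUBB6 call was lost (log2 0.20, adjusted p = 0.0726).

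TUBB, the main beta isotype of dividing cells, had 1260, 1237 and 1292 CPM in double knockout libraries, against 1332, 1348 and 1367 CPM in wild type libraries. It was lower in every double knockout library, by a small amount (log2 -0.09, SE 0.03, edgeR adjusted p = 0.00104). The call was lost when libraries were scaled by total counts alone (log2 -0.04, adjusted p = 0.128). TUBB4A, a brain isotype mutated in a hypomyelinating leukodystrophy, had 14.8, 15.2 and 14.2 CPM in double knockout libraries, against 16.8, 17.7 and 19.2 CPM in wild type libraries. The groups did not overlap, but the log2 fold change of -0.27 (SE 0.12, edgeR adjusted p = 0.0435) lay close to the threshold. It missed the threshold in 10 of 16 alternative fits, among them those without any 1 of double knockout replicates 1, 2 and 3 or wild type replicates 2 and 3 (adjusted p 0.0549 to 0.132; all alternatives 0.0239 to 0.168).

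TUBB3, the neuronal beta isotype, had 0, 1 and 0 reads in double knockout libraries and 0, 0 and 1 read in wild type libraries. In the 4 libraries with 0 reads, that count allows up to 3 counts, or 0.4073 to 0.4995 CPM, from counting error alone. The count is not a clean reading of the gene. The read-through gene AC092143.1 on the same strand covers 89.5% of the TUBB3 main transcript and 95.8% of its coding bases, and itself had 0 reads in all 6 libraries. How reads in exons of both genes were counted is not given in the sources used here, and whether this sets the TUBB3 count was not tested. MC1R, just upstream, had 31 reads in double knockout and 36 in wild type libraries.

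The alpha isotypes differ less in sequence than the beta isotypes do. TUBA1A, the isotype of postmitotic neurons mutated in lissencephaly, had 104, 95.9 and 101 CPM in double knockout libraries, against 74.8, 76.6 and 77.9 CPM in wild type libraries. TUBA1C, a widely expressed isotype, had 339, 359 and 365 CPM in double knockout libraries, against 306, 302 and 308 CPM in wild type libraries. Neither gene's groups overlapped. The log2 fold change was 0.39 for TUBA1A (SE 0.05, edgeR adjusted p = 6.51e-12) and 0.21 for TUBA1C (SE 0.03, edgeR adjusted p = 2.45e-09). The TUBA1C call was lost under spike-in scaling (log2 0.11, adjusted p = 0.314). TUBA1A and TUBA1C share 490 exon bases on opposite strands, so an unstranded count could not tell reads there apart.

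TUBA1B, the main alpha isotype of dividing cells, had 949, 988 and 945 CPM in double knockout libraries, against 938, 952 and 944 CPM in wild type libraries. The ranges overlapped, and the log2 fold change was 0.02 (SE 0.03, edgeR adjusted p = 0.472). Its sign turned with spike-in scaling (log2 -0.08, adjusted p = 0.407), and it was called higher with total counts alone (log2 0.08, adjusted p = 0.00863). The antisense gene AC011603.2 lies over 72.6% of the TUBA1B main transcript and was not called (log2 -0.34, edgeR adjusted p = 0.105). AC010173.1, antisense within TUBA1C, was not called either (log2 -0.15, edgeR adjusted p = 0.613).

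Levels were compared between isotypes per kb of all exon bases. Stretches of 50 bases shared with other genes made up 62.7% of TUBA1B, 65.5% of TUBB2A and 52.2% of TUBB2B. For TUBB and TUBB4A they made up 18.2% and 5.99%. How reads from them were counted is not given. The order of isotypes, and the class shares and ratio of beta to alpha below, carry that uncertainty. TUBB was highest, at 376 ± 8.21 CPM per kb in double knockout and 402 ± 5.31 in wild type libraries (SD, n = 3 each). TUBA1B followed at 269 ± 6.55 in double knockout and 264 ± 1.95 in wild type, and TUBB4B at 201 ± 8.57 in double knockout and 139 ± 7.18 in wild type. TUBA1C, at 76.5 and 66.0 CPM per kb in double knockout and wild type, came next. TUBA1A, at 29.3 in double knockout and 22.3 in wild type, and TUBB6, at 27.4 in double knockout and 22.1 in wild type, overlapped in both groups. TUBB2A stood below both, with 13.5 CPM per kb in double knockout and 9.91 in wild type. The order of the next pair differed between the groups: TUBB2B stood above TUBB4A in double knockout libraries (6.92 and 4.26 CPM per kb) and below it in wild type libraries (3.10 and 5.16 CPM per kb), without overlap in either. Per kb of the main transcript, TUBA1B stood above TUBB instead, at 590 and 473 CPM per kb in double knockout and 581 and 505 in wild type.

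Within the beta class, TUBB took a smaller share in every double knockout library than in any wild type library. As a share of the class per kb of exon, which does not depend on library scaling, TUBB made up 60.4%, 58.8% and 60.1% in double knockout libraries, against 69.9%, 68.4% and 69.3% in wild type libraries. TUBB4B made up 30.9%, 33.4% and 31.6% in double knockout libraries, against 23.1%, 24.7% and 23.9% in wild type libraries. The mean differences were -9.42 points for TUBB and 8.08 points for TUBB4B, and no ranges overlapped. Shares within a class are not independent, since a rise of TUBB4B lowers the TUBB share even where TUBB keeps its level. In levels, the log2 fold change was -0.09 for TUBB and 0.54 for TUBB4B, whose neighbours had a median of 0.44. TUBB2B made up 1.10% ± 0.138 in double knockout and 0.533% ± 0.0960 in wild type libraries (SD, n = 3 each). In the alpha class TUBA1B made up 71.9%, 72.4% and 71.0% in double knockout libraries, against 74.9%, 75.2% and 74.7% in wild type libraries. TUBA1C took 20.4% in double knockout and 18.7% in wild type, and TUBA1A took 7.82% in double knockout and 6.33% in wild type. For each of the 9 isotypes with reads enough to compare, the two-sided exact permutation p was 0.1, and 0.1 after adjustment over 9 shares, the smallest that 3 against 3 libraries allow.

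**Figure D3:**
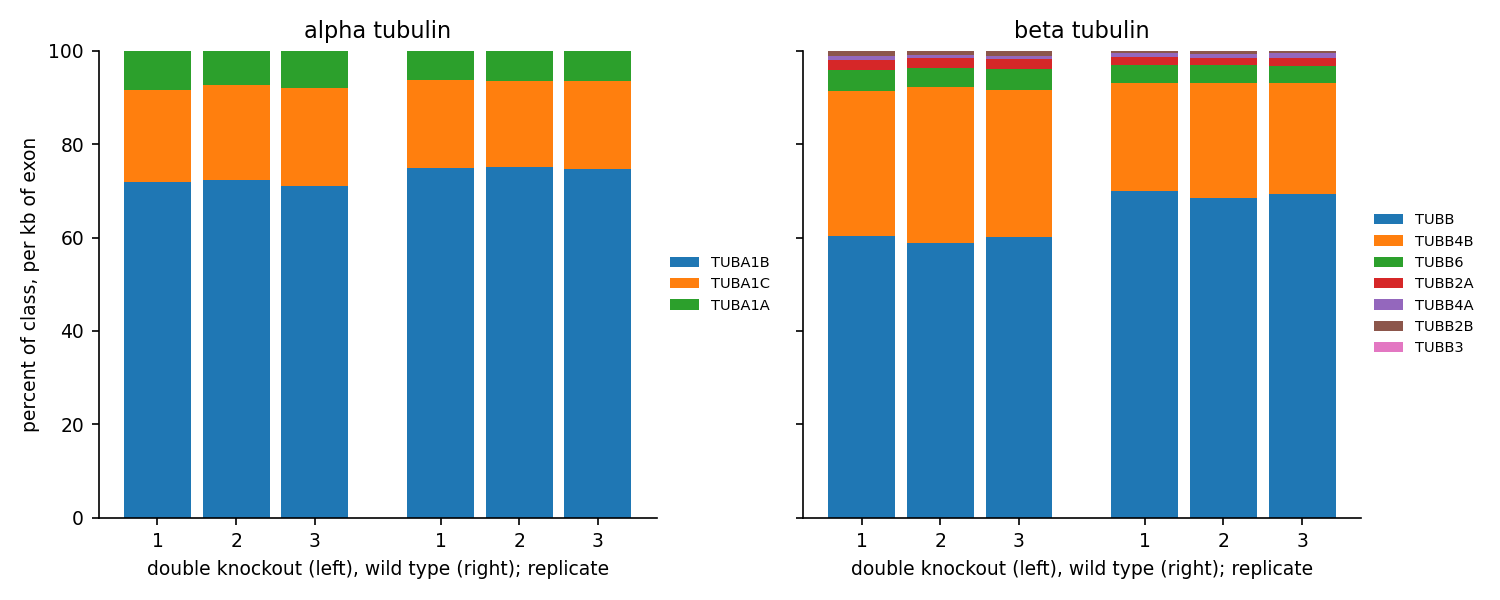
Each isotype as a percentage of its class per kb of exon length, stacked, with 1 bar per library and the double knockout libraries to the left of the wild type libraries. TUBB takes 58.8% to 60.4% of the beta class in double knockout and 68.4% to 69.9% in wild type, and TUBB3 is too low to see.

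Summed over the isotypes of a class, the differences were small. The alpha isotypes summed to 1392, 1442 and 1410 CPM in double knockout libraries, against 1319, 1331 and 1331 CPM in wild type libraries. The beta isotypes summed to 1837, 1835 and 1889 CPM in double knockout libraries, against 1741, 1790 and 1793 CPM in wild type libraries. Neither pair of ranges overlapped, and the log2 differences were 0.09 and 0.06 (two-sided exact permutation p = 0.1 for each). Both turned negative under spike-in scaling, at -0.01 and -0.04, where the median of all tested genes stood at -0.10. The ratio of beta to alpha was 1.31 ± 0.0342 in double knockout and 1.34 ± 0.0154 in wild type libraries (SD, n = 3 each; exact permutation p = 0.2), with overlapping ranges. Per kb of exon it was 1.68 ± 0.0390 in double knockout and 1.65 ± 0.0233 in wild type libraries, also with overlapping ranges (SD, n = 3 each; exact permutation p = 0.3), so its direction depended on the length correction.

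Genes that act on tubulin were read in the same fit, by lists, where 28.6% of all tested genes were higher and 28.5% lower. Of the 3 autoregulation genes 1 was lower: TTC5, which recognises the nascent tubulin chain, averaged 44.4 ± 6.60 CPM in double knockout and 56.6 ± 3.28 CPM in wild type libraries (SD, n = 3 each), a log2 fold change of -0.35 (edgeR adjusted p = 4.28e-06). SCAPER (log2 0.07, adjusted p = 0.343) and CNOT11 (log2 0.09, adjusted p = 0.135) were not called. Of 10 further tubulin genes 4 were tested, with 1 higher and 2 lower. TUBE1, epsilon tubulin of centrioles, had a log2 fold change of -0.59 and TUBD1, delta tubulin, -0.24. TUBA4A averaged 2.49 CPM in double knockout and 1.39 CPM in wild type libraries, with overlapping ranges (log2 0.79, edgeR adjusted p = 0.0431). Its list had 0 genes higher in 10 of 16 alternative fits, among them those without double knockout replicate 2 or 3 or wild type replicate 1 or 3.

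Of 18 tested folding genes, which include the chaperonin that folds tubulin and the cofactors that join the dimer, 3 were higher and 4 lower, with a median of 0.01, where 57.1% of all tested genes were called in either direction. Without double knockout replicate 2 the lower count was 7. The chaperonin subunits did not move together: CCT8 had a log2 fold change of -0.51, CCT6A -0.43 and CCT7 0.30. Of 18 tested genes for tubulin modification 2 were higher and 5 lower. The smallest p-values were those of TTLL12 (log2 0.19), the glutamylase TTLL4 (-0.20) and the tyrosine ligase TTL (-0.15). Larger called changes, picked after their values were seen, were those of the glutamylase TTLL7 (0.32) and the detyrosinase VASH2 (-0.33). Without double knockout replicate 1 the higher count was 1. Of 12 nucleation genes 3 were higher and 3 lower. MZT1, a small subunit of the gamma-tubulin complex, averaged 256 ± 1.08 CPM in double knockout and 128 ± 4.51 CPM in wild type libraries (SD, n = 3 each; log2 0.99, edgeR adjusted p = 2.88e-91). TUBG1, gamma tubulin itself, had a log2 fold change of 0.24, and the polymerase CKAP5 had -0.17.

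The remaining lists hold genes whose products bind the microtubule. Of 15 tested stabilisers 11 were higher and 2 lower, beside 28.6% and 28.5% of all tested genes, with a median log2 fold change of 0.22. DCLK1 (log2 1.53) and MAP6 (log2 2.05) are known for their roles in neurons, and MAP6 averaged 4.77 CPM in double knockout and 1.15 CPM in wild type libraries. MAP4, the main non-neuronal microtubule-associated protein, went the other way, at 139 ± 3.37 CPM in double knockout and 248 ± 3.39 CPM in wild type libraries (SD, n = 3 each; log2 -0.83, edgeR adjusted p = 4.26e-71). Of 12 tested plus-end and minus-end proteins 8 were higher and 4 lower, among them CLASP2 (log2 -0.75), CAMSAP2 (-0.36) and SLAIN2 (0.55). Of 11 tested destabilisers and severing enzymes 3 were higher and 6 lower, with FIGNL1 at -0.56, FIGN at -0.61 and STMN3 at 0.62. The count of 11 higher stabilisers was 6 without wild type replicate 1, 5 with DESeq2 and 2 with spike-in scaling. Over all tested genes, 3636, 3027 and 2133 were higher in those fits, beside 4055 in the main fit. Under spike-in scaling the share of higher stabilisers was therefore not above that of all tested genes. The count of 2 lower stabilisers was 1 without double knockout replicate 3.

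**Figure D4:**
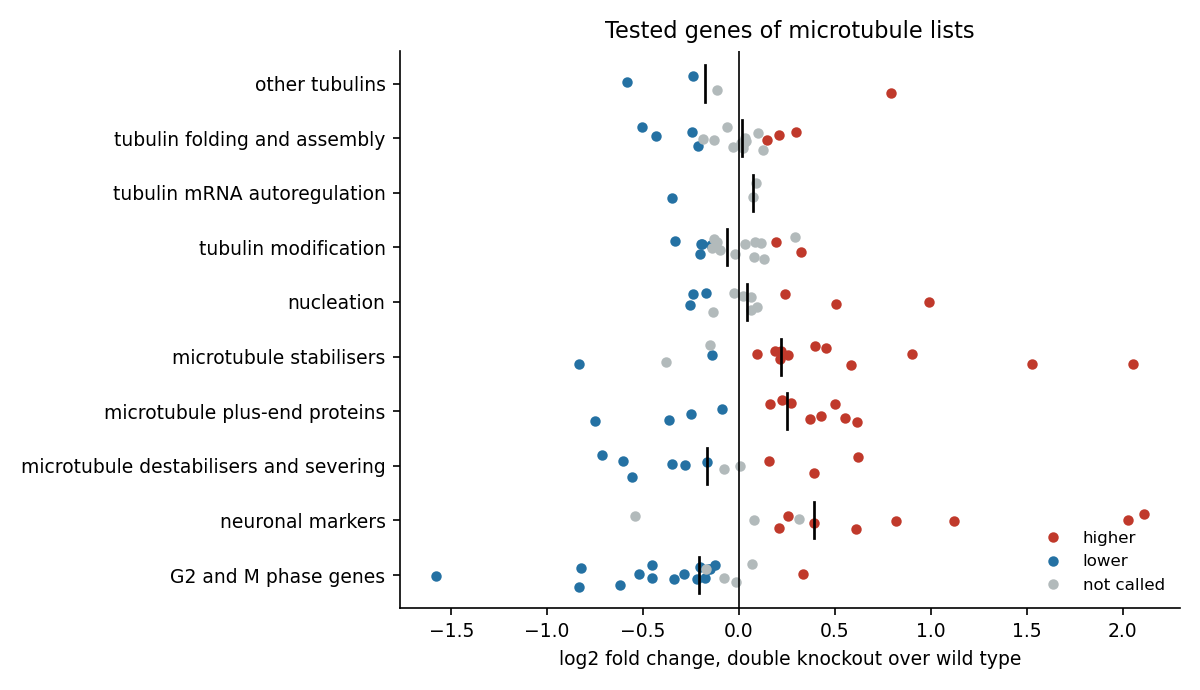
Log2 fold change (double knockout over wild type) of every tested gene in 10 lists, coloured by call, with a black bar at each list's median. The stabilisers have a median of 0.22, with MAP4 at -0.83 and MAP6 at 2.05 at the ends, and the G2 and M phase genes a median of -0.21.

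Marker levels of other states also differed between the groups, and their part in the isotype changes was not tested. Of 16 neuronal markers 11 were tested, 8 were higher and 0 were lower, beside 28.6% and 28.5% of all tested genes, with ENO2 at log2 2.03, UCHL1 at 1.12 and NEFM at 0.82. RBFOX3, a marker of mature neurons picked after its values were seen, had a log2 fold change of -0.54 without overlap of the groups (edgeR adjusted p = 0.0501). The lower count was 1 in 6 of 16 alternative fits, among them those without double knockout replicate 3 or wild type replicate 2 or 3. None of the 16 was at 0 in all libraries, but 5 were too low to test, and 1 of the 16 had at most 3 counts in all. They summed to 720 to 745 CPM in double knockout and 426 to 449 CPM in wild type libraries. Much of that sum was UCHL1, which averaged 358 CPM in double knockout and 164 CPM in wild type libraries. Of 20 G2 and M phase genes 1 was higher and 15 were lower, beside 28.6% and 28.5% of all tested genes, with CENPE at log2 -1.58, CCNA2 at -0.83 and ECT2 at -0.82. They summed to 2690 to 2740 CPM in double knockout and 3394 to 3418 CPM in wild type libraries. In bulk RNA, fewer cells of a kind and less RNA per cell cannot be told apart.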

How the data were processed

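The authors deposited raw read counts per gene, whole numbers without normalisation. Per the submitters' processing notes, cutadapt 2.10, STAR 2.7.6a, featureCounts and build hg38 were used; their settings for strand and for reads with several alignments are not given in those notes. The library kit is directional, per the labels' protocols. All 58721 gene IDs matched GENCODE 29, and 4 spike-in entries were left out of library sizes and tests. The wild type columns are named HEK293G6 and were assigned because no other genotype remained.

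Counts were fitted in R 4.3.3 with edgeR 4.0.16 (filterByExpr with minimum count 10 and total 15, TMM, robust glmQLFit, glmQLFTest, Benjamini-Hochberg over 14180 genes, threshold 0.05). SE is the log2 fold change divided by the root of the quasi-likelihood F. SE and edgeR p-values rest on the spread between libraries of a group, not between independently made lines. That spread was small (common biological coefficient of variation 2.4%). Library sizes were summed over the genes that passed the filter. A first fit had used sizes over all genes, and called 4020 genes higher and 4078 lower in place of 4055 and 4038. The change was made after its results were seen, so that the totals matched an earlier analysis of the same files; the isotype calls were the same in both. limma 3.58.1 (voom) and DESeq2 1.42.0 were alternatives. Single values were compared by two-sided exact permutation over libraries. Same-group libraries differed by more than sampling noise (chi-square over degrees of freedom 1.11 to 1.41), so none was a copy of another. Whether they came from separate cultures cannot be read from this ratio, since library preparations of the same culture can also exceed sampling noise.

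Named genes were the 10 isotypes, both targeted genes, the 3 called members of each list with the smallest p, the autoregulation genes, tested genes overlapping an isotype, and the 3 genes with profiles nearest to TUBB2B. MC1R, AC092143.1, RBFOX3, TTLL7 and VASH2 were added after values were seen. Members and lists were chosen with earlier results of these data known. The ends of the alpha coding sequences are not reported here.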

Additional observations from a re-analysis of the deposited data

How the results depend on the processing

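The count of 6 isotypes higher in double knockout cells ranged from 4 (spike-in scaling) to 7 (total counts only) over 16 alternative fits, and was 6 in each fit without 1 library. The count of 2 lower isotypes was 0 with total counts only, 1 without a low-count filter, with a mean CPM of at least 5, with DESeq2 and with limma voom, and 1 to 2 without 1 library. Wherever the count fell, the TUBB4A call was lost, and with total counts only that of TUBB too. Genes higher numbered 2133 with spike-in scaling, which shifted the median of all tested genes by -0.109; TUBA1B was then reversed at -0.0832. The log2 differences of the summed classes were 0.14 (alpha) and 0.11 (beta) with total counts only, and reversed to -0.0135 and -0.0411 with spike-in scaling; without 1 library they were 0.08 to 0.10 and 0.05 to 0.07. The cause of these shifts was not tested. TUBA1A, TUBB2A, TUBB2B and TUBB4B kept direction and call in all 16 fits, with TUBB2B between 1.01 and 1.32 on the log2 scale. With library sizes over all genes, an alternative added after seeing the data, TUBB4A had an adjusted p of 0.0412 (edgeR). Shares kept their direction under raw counts and, added after seeing the data, the main transcript length; TUBB then differed by -7.88 points with raw counts.

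Replicate numbers did not pair the libraries (correlations of same-numbered libraries 0.0106, 0.0166 and 0.0085). With a replicate block, 4054 genes were higher and 4055 lower, and 6 isotypes were higher and 2 lower. Among the lists, higher stabilisers ranged from 2 to 11, plus-end proteins from 4 to 8, folding genes from 1 to 7 and modification genes from 0 to 4. Over all tested genes, those higher ranged from 2133 with spike-in scaling to 4774 with total counts only. Higher G2 and M phase genes numbered 2 without double knockout replicate 3, where 1 was higher with all libraries. The replicate block left 0 of the other tubulins higher in place of 1. Adding counts of a sense-overlapping gene was not run as a separate fit, since AC092143.1 has 0 reads. Spike-in scaling used the GFP and fLuc entries only, and rests on few reads, 53.9 to 68.4 per 1000000 gene counts. The Rluc entry, with 271 to 378 reads per library, and the Ribo entry, with 0, were not used. The labels give 7 pg of GFP, 1.2 pg of fLuc and 1 µg of RNA for each library, so levels per cell cannot be read from this scaling.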

Other observations

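Reads on tubulin pseudogenes were few beside those on the isotypes. The 11 beta pseudogenes with any read had 382 reads in double knockout and 372 in wild type libraries, of which TUBBP5 had 333 in double knockout and 322 in wild type (log2 0.15, edgeR adjusted p = 0.261). The alpha pseudogene TUBAP had 1 read in double knockout and 0 in wild type libraries. The tested genes with log2 CPM profiles nearest to TUBB2B over the 6 libraries were TOLLIP-AS1 (Euclidean distance 0.151), PAX5 (0.168) and AC090114.2 (0.186). PAX5 had 23, 18 and 22 reads in double knockout libraries, against 8, 13 and 6 reads in wild type libraries, so the likeness rests on low counts.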
